A study of Mus musculus with 12 samples.

Results

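A group of 7 liver genes that are best known from fetal life, liver cancer or injured epithelium were followed across the diets of this mouse study: Afp, H19, Igf2, Gpc3, Cd24a, Ly6d and Sprr1a. They were listed by name with earlier results of these data in view, so their signals on these arrays were known when they were chosen, and within each gene the probe set was selected on its mean signal. Each gene was read from its probe set (several short probes of a transcript that are summarised as 1 signal) of highest mean signal over the 12 arrays, and a probe set marked _x_at, whose probes can match other transcripts, was taken only where there was no other. The list holds 7 of the 18194 genes with a probe set and 14 of the 45101 probe sets. The livers came from C57BL/6 mice that were 8 weeks old at the start and 16 weeks old after 8 weeks of feeding. A group received a diet without methionine and choline and rich in fat that contained 0.1% metformin (MCD+HF+Met), another the same diet without the drug (MCD+HF), and the third normal chow (NC). Each group had 4 mice with 1 array each, and the livers are labelled as fasting. The diet model combines a lack of nutrients with excess fat, so that these components cannot be told apart.

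Afp encodes alpha-fetoprotein, the main plasma protein of the fetal liver, which is silenced in hepatocytes after birth and returns in regenerating liver and hepatocellular carcinoma. H19 and Igf2 are imprinted neighbours, a long noncoding RNA expressed from the maternal chromosome and a growth factor expressed from the paternal chromosome, and both are abundant in fetal liver. Gpc3 is a proteoglycan of the cell surface that modulates growth factor signals. Cd24a and Ly6d are small proteins held in the membrane by a lipid anchor, and Sprr1a is a cross-linked protein of the envelope of squamous cells that also appears in stressed and injured tissues.

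Of these genes, Afp, Cd24a, Ly6d and H19 were higher with the MCD+HF diet than with normal chow, by 38.9, 15.1, 17 and 10.8 times in mean signal. With metformin added to the diet, H19 was lower and Sprr1a was higher than with the diet alone, at 0.148 and 6.71 times the mean signal. No call was made for Afp, Cd24a or Ly6d between the metformin group and the MCD+HF group. Igf2 and Gpc3 passed the test in no comparison.

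The sequences of 2 promoters and of the miRNA pair processed from H19 bear on the genes that stood furthest apart. They are from RefSeq on the GRCm38.p6 assembly, whose promoter windows matched 4 of the 7 genes (Afp, Igf2, Gpc3 and Sprr1a). Afp is shown because it had, of the 7 genes, the largest ratio of MCD+HF to NC, over the 250 bases before its start at chr5:90490464-90490713 on the plus strand. Capitals mark, in order, a match to the NR5A2 motif CAAGGNC (140 to 134 bases before the start, on the minus strand), to the HNF1 motif GTTAAT (105 to 100 bases before) and to the FOXA motif TGTTTNC (55 to 49 bases before). Sprr1a is shown because it had, of the 7 genes, the largest rise between the MCD+HF+Met and MCD+HF groups, over the 250 bases before its start at chr3:92485882-92486131 on the minus strand. Capitals mark 2 matches to the AP-1 motif TGANTCA, at 146 to 140 and 116 to 110 bases before the start, and 2 to the FOXA motif, at 90 to 84 (minus strand) and 65 to 59 bases before it (plus strand). The miRNAs are shown because the array reads their precursor gene together with H19, and capitals mark their seeds (bases 2 to 8).
Afp promoter: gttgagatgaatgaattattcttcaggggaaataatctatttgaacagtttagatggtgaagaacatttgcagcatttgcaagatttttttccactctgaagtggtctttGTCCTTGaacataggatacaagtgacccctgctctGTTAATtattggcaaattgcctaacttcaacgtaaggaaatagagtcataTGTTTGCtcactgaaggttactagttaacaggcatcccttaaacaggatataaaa
Sprr1a promoter: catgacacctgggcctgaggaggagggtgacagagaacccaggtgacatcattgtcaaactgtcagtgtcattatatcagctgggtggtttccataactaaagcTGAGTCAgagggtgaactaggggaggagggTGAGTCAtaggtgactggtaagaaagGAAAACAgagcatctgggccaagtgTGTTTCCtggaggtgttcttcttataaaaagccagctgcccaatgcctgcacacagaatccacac
mmu-miR-675-3p: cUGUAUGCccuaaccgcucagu
mmu-miR-675-5p: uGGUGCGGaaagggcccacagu

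Both strands of both promoters were searched for each motif, and the 4 motifs do not overlap each other in these windows. Among 32851 windows of the same length, 6.75% held the AP-1 motif and 0.338% held it at least 2 times. The HNF1 motif was in 6.43% of the windows, the FOXA motif in 17.8% and the NR5A2 motif in 15%. A match describes the letters only and does not show that a factor was bound. The seeds of the 2 miRNAs differ, and the arrays did not measure mature miRNAs.

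The arrays were described by a few checks. The summed signal of hepatocyte markers (5 genes, Alb and Ttr among them) was 43330.5 to 54159.7 in MCD+HF+Met livers, 38475.1 to 47120.6 in MCD+HF livers and 77386.9 to 90732.4 in NC livers, and all 5 were called lower with the diet. The livers thus expressed the defining markers of liver in every group. In whole livers, fewer cells of a type and less RNA per cell cannot be told apart. RNA quality was read from the 3' to 5' signal ratio of beta-actin, which was 1.62 to 1.86 in MCD+HF+Met, 1.458 to 1.617 in MCD+HF and 1.54 to 1.88 in NC, so that every MCD+HF+Met array was above every MCD+HF array. The same ratio of Gapdh was 0.704 to 0.804 in MCD+HF+Met, 0.686 to 0.715 in MCD+HF and 0.692 to 0.717 in NC. In the comparison in which H19 and Sprr1a were called, the actin ratios thus separated by a narrow margin (1.62 against 1.617), while the Gapdh ratios overlapped. The part of RNA quality in those results was not tested. Tests used limma on log2(signal + 10), with 1 model of the 3 groups, and a call needed an adjusted p under 0.05 over all 22832 probe sets whose mean signal reached 20. Fold changes on that scale understate those of dim genes. Among 11100 genes tested, 27.4% were called higher, 20.8% lower and 48.3% in either direction between MCD+HF and NC, beside 4 genes of the list called higher and 0 lower. For MCD+HF+Met against MCD+HF, 1.63% were called higher, 2.35% lower and 3.98% in either direction, beside 1 gene of the list in each direction. For MCD+HF+Met against NC, 25.6% were called higher, 18.6% lower and 44.2% in either direction, beside 4 genes of the list higher and 0 lower. The genes were listed with these results known, so their counts are a description. The comparisons share arrays, and p-values measure the spread between mice. The threshold of mean signal fell between Igf2, with a mean of 21.9 over the 12 arrays, and Gpc3, with a mean of 19.5, so 6 of the 7 genes were tested and Gpc3 is called dim.

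**Figure D1:**
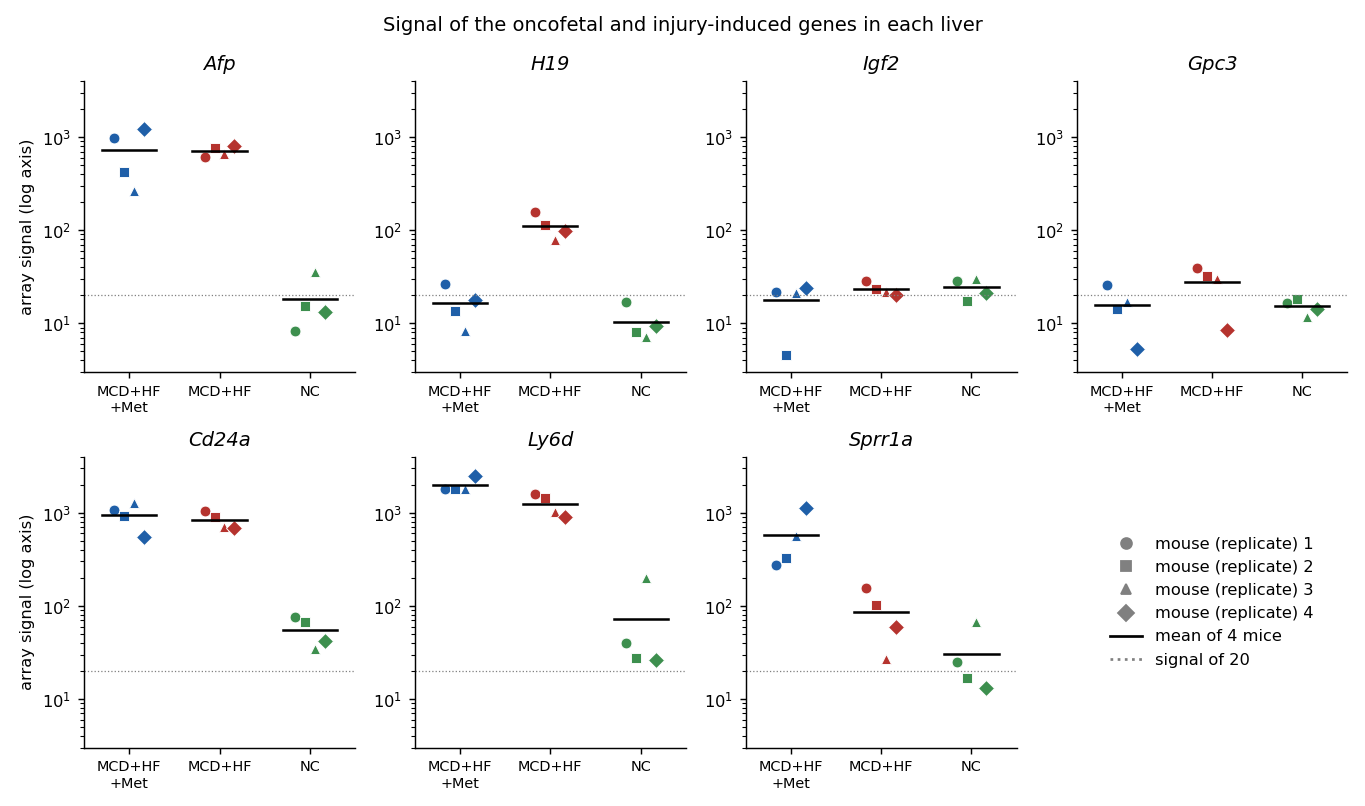
Array signal (log axis) of each gene in each liver, by group, with 1 point per mouse, shapes for replicate numbers, a line at the mean of 4 mice and a dotted line at a signal of 20. Afp, Cd24a and Ly6d separate both diet groups from NC, H19 is high in the MCD+HF group alone, and Sprr1a is highest in MCD+HF+Met.

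Afp lies at chr5:90490714-90508907. Its signal was 986.9, 424.1, 264.6 and 1233.9 in the 4 MCD+HF+Met livers, 604.8, 762.6, 665.6 and 802.5 in the MCD+HF livers, and 8.2, 15.5, 35.7 and 13.4 in the NC livers. Every liver of both diet groups lay far above every NC liver. Mean signals were 727 ± 458, 709 ± 90.1 and 18.2 ± 12.1 for MCD+HF+Met, MCD+HF and NC (SD, n = 4 each). The log2 change between MCD+HF and NC was 4.75 (standard error 0.38, adjusted p = 8.6e-08 from limma), which ranked 9 among the rises of all 11100 genes. Groups did not overlap in that direction for 25.1% of the genes. Between MCD+HF+Met and MCD+HF the groups overlapped, and the log2 change was -0.20 (standard error 0.38, adjusted p = 0.822 from limma). The means of these groups were close, but the metformin group was the more dispersed, and its highest liver had 4.66 times the signal of its lowest, against 1.33 times in the MCD+HF group. This difference in spread was not tested. MCD+HF+Met livers were still above NC livers, with a log2 change of 4.55 (adjusted p = 1.9e-07 from limma).

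Afp had 4 other probe sets. Those with a mean signal of at least 20 gave log2 changes between MCD+HF and NC of 3.92 (adjusted p = 3.6e-07 from limma) and 4.01 (adjusted p = 7.4e-08 from limma). With metformin they gave -0.18 and -0.21 against MCD+HF, and neither was called. The other 2 were dim. One averaged 13.6 in MCD+HF and 4.60 in NC, and the other, with a mean of 0.975 in MCD+HF and 5.15 in NC, ran the opposite way with no call.

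H19 lies at chr7:142575530-142578146 and is annotated as a long noncoding RNA. Its only probe set is annotated to both H19 and Mir675, the precursor of the miRNAs above, which lies inside H19 at chr7:142577064-142577147. The signal was 26.7, 13.7, 8.3 and 17.6 in MCD+HF+Met livers, 157.1, 114.2, 78.8 and 98.1 in MCD+HF livers, and 17, 8.0, 7.2 and 9.4 in NC livers. All 4 MCD+HF livers exceeded all livers of the other groups, which overlapped each other. Means were 16.6 ± 7.75 in MCD+HF+Met, 112 ± 33.3 in MCD+HF and 10.4 ± 4.49 in NC (SD, n = 4 each). H19 was higher with the diet, with a log2 change of 2.57 (standard error 0.24, adjusted p = 4.1e-07 from limma). With metformin it was lower than with the diet alone, with a log2 change of -2.21 (standard error 0.24, adjusted p = 0.00029 from limma). That fall ranked 4 among all genes tested. With the methods' t-test after Benjamini-Hochberg adjustment, the adjusted p was 0.0874. Groups did not overlap downward for 6.21% of the genes in this comparison. MCD+HF+Met and NC livers overlapped, with a log2 change of 0.36 (standard error 0.24, adjusted p = 0.244 from limma).

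H19 was the one gene of the list called lower with metformin, and part of the macrophage markers moved with it. The summed signal of the 6 macrophage markers was 2816.9, 2382.7, 3625.7 and 3805.4 in MCD+HF+Met livers, 6742.1, 5973.8, 4875.8 and 4710.1 in MCD+HF livers, and 3842.1, 3956.7, 3445.7 and 3210.2 in NC livers. Of the 6, 3 were called higher and 1 lower with the diet, and 3 were called lower with metformin. Over all genes tested, these shares were 27.4%, 20.8% and 2.35%. Clec4f and Cd5l did not follow H19. Mean Clec4f signals were 275.8 in MCD+HF+Met, 207.8 in MCD+HF and 509.1 in NC, and those of Cd5l were 730.6, 837.9 and 1097.8. Within MCD+HF+Met, replicate 1 had the most H19 (26.7) and replicate 3 the least (8.3), with marker sums of 2816.9 and 3625.7. H19 was near or under the minimum signal in that group, so its order there is uncertain. Within MCD+HF, replicates 1 and 2 had the most H19 (157.1 and 114.2) and the highest marker sums (6742.1 and 5973.8). Replicates 3 and 4 had H19 signals of 78.8 and 98.1, with sums of 4875.8 and 4710.1. The part of macrophages in the H19 result was not tested.

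The genes whose pattern was closest to H19 were found by the root mean square difference in log2(signal + 10), each taken relative to its own NC mean, over the 12 arrays. They were Itgb2, the beta-2 integrin of leukocytes, at 0.402, Gpr137b, a lysosomal membrane protein, at 0.415 and Lyz2, the lysozyme of macrophages and neutrophils, at 0.447. Mean Itgb2 signals were 134 in MCD+HF+Met, 468 in MCD+HF and 91.6 in NC. Mean signals of Lyz2, which is also among the macrophage markers above, were 688, 2006 and 407 in the same groups. In these genes, as in H19, MCD+HF livers stood above all other livers. Lyz2 in MCD+HF+Met livers, at 575.0 to 786.5, was also above NC livers, at 331.6 to 451.8.

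**Figure D2:**
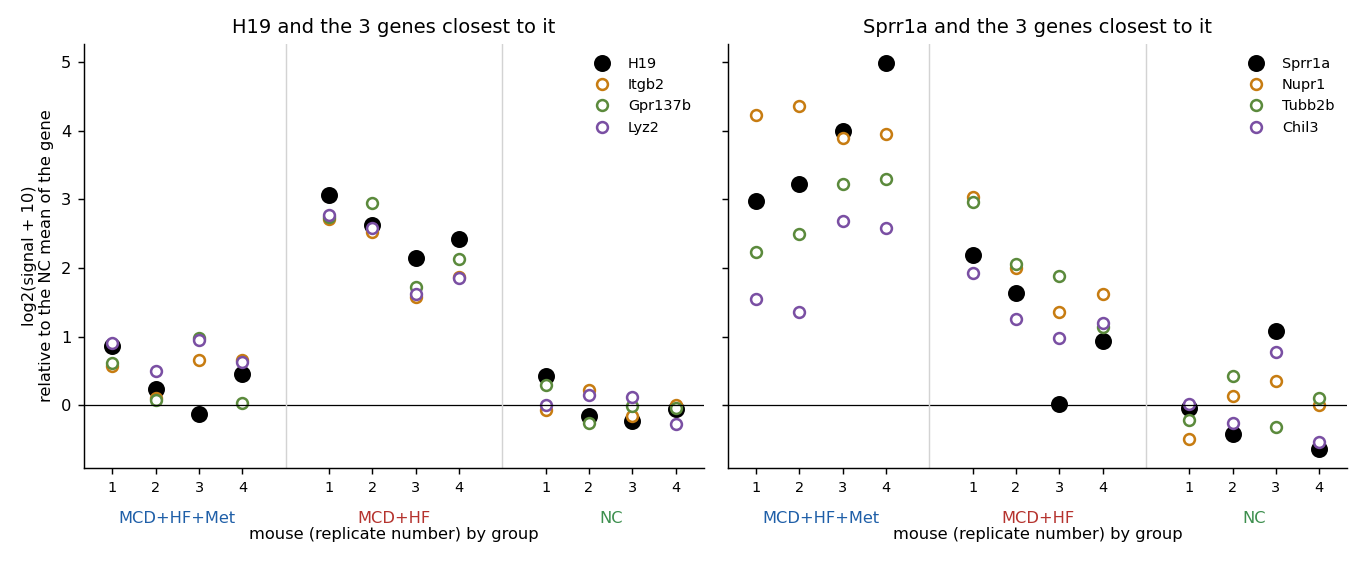
Values of H19 (left) and Sprr1a (right) with their 3 closest genes in each mouse, as log2(signal + 10) relative to the NC mean of the gene, with groups side by side and replicate numbers below. H19 and its 3 genes are highest in the MCD+HF livers and lower in MCD+HF+Met livers, where Lyz2 still lies above every NC liver, while Nupr1 and Sprr1a are highest in MCD+HF+Met livers.

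Igf2 lies at chr7:142650768-142666816, on the same chromosome as H19 with 72621 bases between the genes. The signal was 21.6, 4.6, 21.0 and 24.0 in MCD+HF+Met livers, 28.2, 23.1, 21.9 and 20.3 in MCD+HF livers, and 28.8, 17.5, 30.1 and 21.1 in NC livers. The groups overlapped, and 1 MCD+HF+Met liver was far below the rest. The log2 change was -0.03 (standard error 0.25, adjusted p = 0.932 from limma) between MCD+HF and NC, and -0.33 (standard error 0.25, adjusted p = 0.495 from limma) between MCD+HF+Met and MCD+HF. Signals near the minimum cannot show small changes, and the other Igf2 probe set was dimmer still, with a mean of 3.78.

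The IGF axis around Igf2 was tested as a list of 13 ligands, receptors and binding proteins, of which 11 passed the minimum. With the diet 6 were called higher and 3 lower, beside 27.4% higher and 20.8% lower over all genes tested. The median log2 change was 0.60, against 0.051 over all genes tested. Higher were Igf1r, the receptor that transmits IGF signals, by a log2 change of 1.26 (adjusted p = 5.9e-05), and Igf2r, which clears Igf2 from the surface, by 0.60 (adjusted p = 0.00836). Igfbp1, a binding protein made by hepatocytes, was higher by 2.27 (adjusted p = 1e-05 from limma) and Igfbp7 by 1.52 (adjusted p = 5.3e-08). Igfbp3 was higher by 0.985 (adjusted p = 0.00075 from limma) and Igfbp2 by 0.66 (adjusted p = 0.0129). Igfals, which stabilises circulating IGF complexes, fell by 1.55 (adjusted p = 1.8e-06 from limma). Insr, the insulin receptor, changed by -0.74 (adjusted p = 9.2e-05 from limma) and Igfbp4 by -0.66 (adjusted p = 4.2e-06). Igf1 changed by -0.23 (adjusted p = 0.13). With metformin 1 gene was called, Igfbp7, at -0.48 (adjusted p = 0.0338 from limma), beside 3.98% over all genes tested. Of 11 other imprinted genes tested, 6 were called higher and 1 lower with the diet, beside 27.4% and 20.8% over all genes tested. Those higher included Grb10, an adaptor that dampens insulin receptor signals, at 1.82, and Dcn, a matrix proteoglycan, at 1.60 (adjusted p = 2.7e-08 from limma). Peg3 was higher by 1.52 and Meg3 by 1.08. With metformin 1 of these 11 was called, Dcn at -0.43 (adjusted p = 0.0494 from limma).

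Gpc3, at chrX:52272426-52613974, was dim. Its signal was 26.1, 14.4, 17 and 5.3 in MCD+HF+Met livers, 39.2, 32.1, 30.3 and 8.5 in MCD+HF livers, and 16.4, 18.4, 11.8 and 14.2 in NC livers. Of the MCD+HF livers 3 lay above all NC livers and 1 lay below them. In the fit without a minimum signal the log2 change was 0.49 (standard error 0.30, adjusted p = 0.269 from limma) between MCD+HF and NC, and -0.52 (standard error 0.30, adjusted p = 0.539 from limma) between MCD+HF+Met and MCD+HF. With 1 array left out, Gpc3 passed the minimum in 3 cases. Between MCD+HF and NC it was called without MCD+HF replicate 4 (log2 change 0.80, adjusted p = 0.0197 from limma), and not without NC replicate 3 (0.42, adjusted p = 0.32) or MCD+HF+Met replicate 4 (0.49, adjusted p = 0.151). Of 7 related proteoglycans of the cell surface tested, the diet raised Gpc1 (log2 change 1.71, adjusted p = 2.2e-08) and Gpc6 (0.75, adjusted p = 0.00609), and lowered Sdc2 and Sdc4. With metformin Sdc4 was higher (0.52, adjusted p = 0.028).

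Cd24a, at chr10:43579169-43584265, encodes a heavily glycosylated surface protein of progenitor, biliary and immune cells. Its signal was 1069.3, 916.8, 1270.2 and 543.8 in MCD+HF+Met livers, 1040.3, 895.3, 696.5 and 689.7 in MCD+HF livers, and 76.8, 66.8, 34.5 and 41.6 in NC livers. Both diet groups stood above NC in every liver and overlapped each other. Means were 950 ± 307, 830 ± 169 and 54.9 ± 20.1 for MCD+HF+Met, MCD+HF and NC (SD, n = 4 each). The log2 change between MCD+HF and NC was 3.73 (standard error 0.25, adjusted p = 1.3e-08 from limma), which ranked 22 among the rises. With metformin it was 0.15 (standard error 0.25, adjusted p = 0.798 from limma). The other Cd24a probe sets gave 2.84 and 3.26 with the diet, and -0.06 and 0.20 with metformin.

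Markers of bile duct and ductular cells moved with Cd24a. Of the 6 markers with a probe set, Krt19, Krt7, Epcam and Sox9 had a mean signal of at least 20. All 4 were called higher with the diet, beside 27.4% of all genes tested, and none with metformin. Their sum with Cftr and Muc1 was 421.2, 275.5, 330.7 and 185.4 in MCD+HF+Met livers, 403.3, 359.6, 331.5 and 284.7 in MCD+HF livers, and 30.2 to 83.0 in NC livers. The MCD+HF+Met liver with the lowest sum was also the one with the least Cd24a. Neutrophil marker sums were 230.9 to 543.5, 240.1 to 428.9 and 80.6 to 213.4 in MCD+HF+Met, MCD+HF and NC. Their part in the Cd24a result was not tested.

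The gene closest to Cd24a was Scara3, a scavenger receptor family member that protects cells from oxidative stress, at a difference of 0.200. Its signal was 515.5, 392.5, 521.8 and 208.8 in MCD+HF+Met livers, 487.7, 445.7, 311.1 and 310.4 in MCD+HF livers, and 33.4, 31.0, 16.4 and 8.9 in NC livers. Within MCD+HF+Met, as with Cd24a, replicate 3 was highest and replicate 4 lowest. Bex1 at 0.340 and Tspan8 at 0.351, a tetraspanin of epithelia, came after it. Siglecg, a lectin that binds Cd24 on immune cells, was dim, between 0.6 and 35.4 in all livers, so its level could not be tested.

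Ly6d, at chr15:74762056-74763567, is a surface marker of keratinocytes and of early B-lineage cells. Its signal was 1819.5, 1799.4, 1801.2 and 2477.7 in MCD+HF+Met livers, 1583.2, 1453.7, 1022.3 and 891.8 in MCD+HF livers, and 39.7, 27.3, 197.4 and 26.3 in NC livers. The 3 groups did not overlap, in the order MCD+HF+Met, MCD+HF, NC. Means were 1974 ± 336, 1238 ± 333 and 72.7 ± 83.4 (SD, n = 4 each). The log2 change between MCD+HF and NC was 4.31 (standard error 0.40, adjusted p = 4.9e-07 from limma), which ranked 12 among the rises. Between MCD+HF+Met and MCD+HF it was 0.70 (standard error 0.40, adjusted p = 0.37 from limma), which ranked 89 among the rises of that comparison. This was not called, although every MCD+HF+Met liver was above every MCD+HF liver, as was so upward for 6.42% of genes. Without NC replicate 3 it was called (adjusted p = 0.045 from limma). Between MCD+HF+Met and NC the log2 change was 5.01 (adjusted p = 1.4e-07 from limma).

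Cells known to express Ly6d were looked for by markers of B cells and of squamous epithelium, and markers of other cells moved with it. B cell marker sums were 53.7 to 68.9 in MCD+HF+Met, 56.5 to 95.1 in MCD+HF and 55.7 to 86.4 in NC, and 1 of the 4 markers with a probe set, Cd22, had a mean of at least 20 and was called higher with the diet (mean 41.9 in MCD+HF and 26.9 in NC). Sums of 5 markers of stratified epithelium were 38.5 to 72.3, 47.4 to 66.7 and 75.3 to 98.0 in the same groups, and 1 of the 5 had a mean of at least 20. The diet groups thus overlapped NC in the B cell sums and lay below it in the epithelial sums. Stellate cell and myofibroblast markers, of which 5 of 6 were called higher with the diet, summed to 1531.8 to 2740.3 in MCD+HF+Met, 1972.7 to 3465.4 in MCD+HF and 502.8 to 665.2 in NC. Markers of proliferating cells, of which 3 of 5 were called higher with the diet, summed to 185.3 to 343.0, 119.5 to 245.8 and 55.5 to 100.7 in the same groups. Over all genes tested, 27.4% were called higher with the diet. Ductular markers and part of the neutrophil markers also moved with the diet, as given beside Cd24a. The part of these cells in the results for Ly6d, Afp and the other genes higher with the diet was not tested. Of 5 other genes of the Ly6 family tested, Lynx1 (log2 change 1.23, adjusted p = 0.00143 from limma) and Plaur, the urokinase receptor (0.94, adjusted p = 0.00084), rose with the diet. Cd59a, a complement inhibitor, fell by 0.86 (adjusted p = 3.7e-06 from limma). Lynx1 was near the minimum of 20, with means of 29.1 in MCD+HF+Met, 27.9 in MCD+HF and 7.68 in NC. None of the 5 was called with metformin. Ly6e, a family member, changed by 0.11 with the diet (adjusted p = 0.625). By pattern, the gene closest to Ly6d was Afp, at a difference of 0.737, and after it came Mmp7, a matrix metalloproteinase of injured epithelium, at 0.751. Afp itself lay closest to Cidec, a protein of lipid droplets, at 0.534, then to Cyp3a44, a cytochrome of hepatocytes, at 0.646 and to Mmp7 at 0.706.

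Sprr1a, at chr3:92483954-92485881, had a signal of 274.8, 325.2, 565.4 and 1128.9 in MCD+HF+Met livers, 154.4, 101.7, 26.6 and 59.1 in MCD+HF livers, and 25.1, 17, 66.7 and 13.3 in NC livers. All MCD+HF+Met livers exceeded all others, while MCD+HF and NC overlapped. MCD+HF+Met lay above MCD+HF without overlap for 6.42% of the genes tested, and above NC for 22.3%. Means were 574 ± 391 in MCD+HF+Met, 85.5 ± 55.3 in MCD+HF and 30.5 ± 24.6 in NC (SD, n = 4 each). The log2 change between MCD+HF+Met and MCD+HF was 2.60 (standard error 0.48, adjusted p = 0.0084 from limma), which ranked 2 among the rises of all genes tested. The methods' t-test after Benjamini-Hochberg adjustment gave it an adjusted p of 0.142. Between MCD+HF and NC it was 1.19 (standard error 0.48, adjusted p = 0.0539 from limma), just short of the threshold. Without NC replicate 3 that change was 1.56 (adjusted p = 0.0159), and without MCD+HF replicate 3 it was 1.59 (adjusted p = 0.0129), and leaving out MCD+HF+Met replicate 1 or 4 also made the call. MCD+HF+Met exceeded NC by 3.79 on the log2 scale (adjusted p = 1.4e-05 from limma).

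The gene closest to Sprr1a was Nupr1, a nuclear protein induced by stress, at a difference of 0.842, with means of 442 in MCD+HF+Met, 106 in MCD+HF and 16.5 in NC. Tubb2b, a tubulin, followed at 1.00 and Chil3, a chitinase-like protein of macrophages, at 1.09. These distances were above those found for H19 and Cd24a. Other proteins of the squamous envelope were mostly dim: of 17 genes with a probe set, 5 were tested. Ppl, which links the envelope to keratin filaments, rose with the diet by 1.14 (adjusted p = 3.3e-06), Tgm1, the enzyme that cross-links it, by 0.58 (adjusted p = 0.0117) and Dsp, a desmosome protein, by 0.43 (adjusted p = 0.0188). None of the 5 was called with metformin. Sprr1b, the nearest relative of Sprr1a by name, stayed between 0.2 and 4.0 in all livers.

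**Figure D3:**
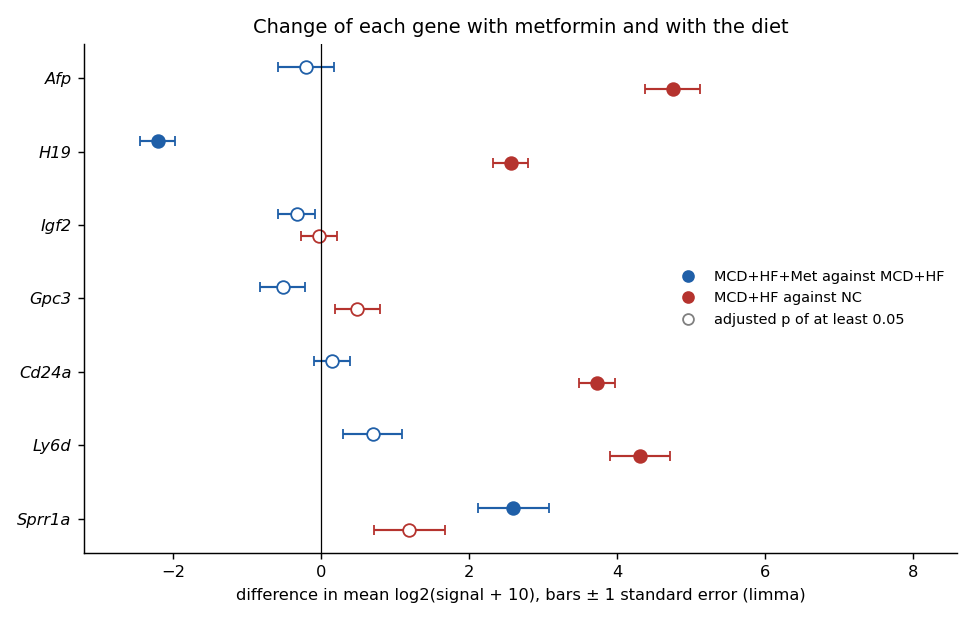
Difference in mean log2(signal + 10) for each gene, with bars of 1 standard error from limma, between MCD+HF+Met and MCD+HF (blue) and between MCD+HF and NC (red); filled points were called and Gpc3 comes from the fit without a minimum signal. Afp, Cd24a and Ly6d have large changes with the diet. With metformin Afp and Cd24a have small changes, and Ly6d has one of 0.70 that was not called. H19 moved in opposite directions at 2.57 and -2.21, and Sprr1a moved most with metformin, at 2.60.

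In the MCD+HF group, replicates 1 and 2 were the highest for 6 of the 7 genes, and Afp was the exception. Of those genes, Igf2 and Gpc3 had signals near the minimum. Replicates 1 and 2 also had the highest array medians and the highest macrophage, ductular, stellate and proliferating cell sums of that group. Their macrophage sums were 6742.1 and 5973.8, against 4875.8 and 4710.1 in replicates 3 and 4. Their hepatocyte sums were the lowest of the group. This order was thus not particular to the list, and its share over all genes was not tested. In the MCD+HF+Met group, replicate 4 was highest for Afp, Ly6d and Sprr1a and lowest for Cd24a. In the NC group, replicate 3 was highest for Afp (35.7), Ly6d (197.4) and Sprr1a (66.7) and lowest for H19 (7.2) and Cd24a (34.5). Its stratified epithelium marker sum was 87.0, within the NC range.

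Genes that share the fetal or progenitor theme were counted from a list of 20, of which 11 were tested. With the diet 8 were called higher and 0 lower, beside 27.4% higher and 20.8% lower over all genes tested. The median log2 change was 1.52, against 0.051 over all genes. Highest were Epcam, an adhesion protein of ductular cells, at 3.33 (adjusted p = 6.1e-08), Sox4, a transcription factor of progenitors, at 2.83 (adjusted p = 1.7e-07) and Prom1, a surface marker of progenitors, at 2.75 (adjusted p = 2.9e-08). Cd44, the hyaluronan receptor, followed at 1.58 (adjusted p = 1.6e-05). Mean Epcam signals were 149 ± 27.1 in MCD+HF and 6.32 ± 5.52 in NC (SD, n = 4 each). With metformin 1 of the 11 was called, Cd44, at -1.0 (adjusted p = 0.0155 from limma), with means of 188 ± 37.5 in MCD+HF+Met and 400 ± 140 in MCD+HF (SD, n = 4 each). Between MCD+HF+Met and NC, 8 were called higher and 1 lower, beside 25.6% and 18.6% over all genes tested. The 1 lower was Igf2bp3, at -0.87 (adjusted p = 0.0043 from limma). With the diet Igf2bp3 (-0.47), Mest (-0.36) and Hmga2 (0.19) were not called. Dlk1, another fetal gene, was dim, between 5.8 and 32.4 in all livers. Lin28a, Lin28b, Sall4 and Igf2bp1 were dim too, with means of 2.83, 2.39, 4.19 and 5.56 over the 12 arrays. Epcam and Sox9 of this list are also among the ductular markers given beside Cd24a.

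**Figure D4:**
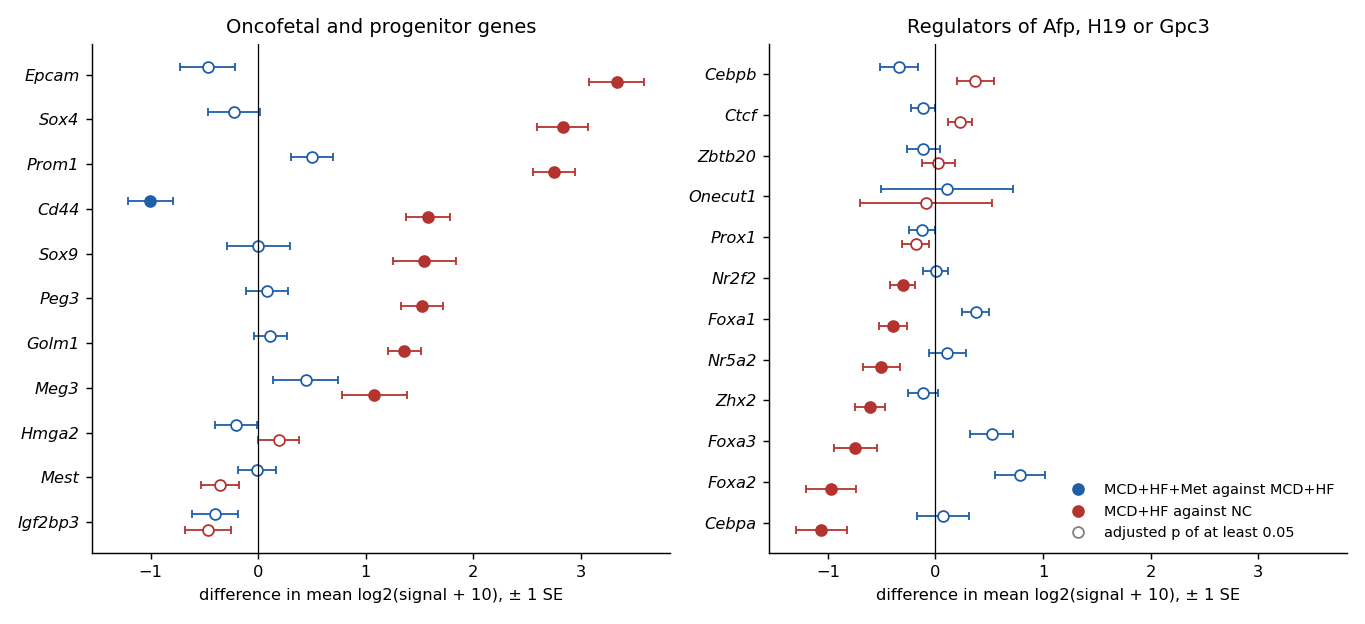
Difference in mean log2(signal + 10) with bars of 1 standard error from limma for 11 oncofetal and progenitor genes (left) and 12 regulators of Afp, H19 or Gpc3 (right), between MCD+HF+Met and MCD+HF (blue) and between MCD+HF and NC (red), with called genes filled. With the diet 8 of 11 oncofetal and progenitor genes were called higher and 7 of 12 regulators lower. Over all genes tested, 27.4% were called higher and 20.8% lower with the diet. Of the genes shown, Cd44 alone was called with metformin.

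Regulators known to silence or drive Afp, H19 or Gpc3 were tested as a list of 16, of which 12 passed the minimum. With the diet 7 were called lower and 0 higher, beside 20.8% lower and 27.4% higher over all genes tested. The median log2 change was -0.35. The list holds both silencers and drivers, so these counts have no single direction for Afp, H19 or Gpc3. Zhx2, which silences Afp and H19 in adult mouse liver, had a signal of 63.2, 61.3, 53.8 and 64.4 in MCD+HF+Met livers, 74.9, 83.9, 60.6 and 50.6 in MCD+HF livers, and 112.7, 108.3, 108.1 and 96.9 in NC livers. It was lower in every liver of both diet groups than in every NC liver. Groups did not overlap downward for 20.1% of genes between MCD+HF and NC, and for 17.3% between MCD+HF+Met and NC. The log2 change of Zhx2 between MCD+HF and NC was -0.61 (standard error 0.14, adjusted p = 0.00222 from limma). With metformin it was -0.12 (adjusted p = 0.704 from limma). Zbtb20, a repressor of Afp, changed by 0.03 with the diet (adjusted p = 0.907). Cebpa and Foxa2, which drive hepatocyte genes, fell by 1.06 (adjusted p = 0.00192) and 0.97 (adjusted p = 0.00306), and Foxa3 by 0.75 (adjusted p = 0.00692). Nr5a2, whose motif is marked in the Afp promoter, changed by -0.50 with the diet (adjusted p = 0.0282 from limma). None of the 12 was called with metformin.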

How the data were processed

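Total RNA of 12 livers was hybridised by the authors to Affymetrix mouse arrays, 1 per mouse. The deposited intensities are linear GCOS signals, 1 per probe set, which the authors scaled to an average of 100 per array (a mean with 2% trimmed in each tail gave that value). The table held 45101 probe sets, 64 of them controls. The detection calls were not used here, and the number of arrays limits the precision. From the signals, log2(signal + 10) was computed without further normalization, and 22832 probe sets with a mean of at least 20 were tested in limma 3.58.1 (R 4.3.3; lmFit, eBayes with trend) in 1 model of 3 groups of 4, with Benjamini-Hochberg adjustment and a threshold of 0.05. The groups came from the labels.

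Names came from the platform annotation, where 34945 probe sets named 1 gene, 932 several and 9160 none here, and 34741 symbols were updated from a RefSeq table of GRCm38.p6, which also gave the loci. The members and lists were chosen with earlier results of these data known. All 7 members are named, together with up to 4 called genes of each list and comparison with the largest change, a few partners of members and the 3 genes most alike to each called member. Some other list and marker genes are named where they went another way, were dim or not called, or have a motif shown. H19 was kept although its probe set also names Mir675. Alternatives were other offsets (0, where signals under 0.1 were set to 0.1, and 32), no minimum and a minimum of 50, quantile normalization, a replicate block, leaving out an array in turn, a fit restricted to the compared groups, other probe sets and the methods' t-test. limma was also run on simulated data, with results not given here. Python 3.11.15 with matplotlib 3.10.9 drew the figures.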

Additional observations from a re-analysis of the deposited data

Results flagged for a closer look

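In 3 of the 21 combinations of gene and group, 1 mouse lay far from the other 3. Chance marks about 1 in 20 such groups of 4 mice. Igf2 in MCD+HF+Met had a lowest signal of 4.6, against 21.0 to 24.0 in the other mice, a gap of 0.845 of the group's range. Ly6d in MCD+HF+Met had a highest signal of 2477.7, against 1799.4 to 1819.5 in the others, a gap of 0.970 of the range. Ly6d in NC had a highest signal of 197.4, against 26.3 to 39.7 in the others, a gap of 0.922 of the range.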

How the results depend on the processing

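Every called change of a chosen probe set kept its direction under the alternatives tried. Changes that were not called could turn sign, such as that of Afp between MCD+HF+Met and MCD+HF, at 0.19 without MCD+HF+Met replicate 3. A dim Afp probe set ran the other way, with a log2 change of -0.42 between MCD+HF and NC and -0.34 between MCD+HF+Met and NC, neither called. Leaving out 1 array at a time gave 4 to 5 genes of the list higher between MCD+HF and NC and 1 to 2 higher between MCD+HF+Met and MCD+HF. The 2 were Ly6d and Sprr1a, without NC replicate 3. With the methods' t-test after Benjamini-Hochberg adjustment, 0 genes of the list were higher and 0 lower with metformin (H19 adjusted p = 0.0874 and Sprr1a 0.142). With the methods' unadjusted threshold and a fold over 1.5, 2 were higher, Ly6d and Sprr1a. With a minimum of 50, 0 were lower, since H19 was not tested there. Sprr1a between MCD+HF and NC, not called at first, passed the threshold at an offset of 0 (adjusted p = 0.0439), with the 2 groups alone (0.0433), and without MCD+HF+Met replicate 1 (0.0493) or 4 (0.0319). Gpc3 passed the minimum and was called without MCD+HF replicate 4 (log2 change 0.80, adjusted p = 0.0197).

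Replicate numbers did not pair the mice: over 12 pairs that share a number, correlations of deviations were -0.134 to 0.251 and 2 were over 0.1. With the replicate number as a block, 4 genes were higher with the diet, and with metformin 1 was higher (Sprr1a, adjusted p = 0.0234) and 1 lower (H19, adjusted p = 4.9e-05). Over all probe sets the block gave 261 higher and 464 lower with metformin, against 282 and 504 without it. Leaving out 1 array moved these counts further, to 85 higher and 167 lower without MCD+HF replicate 2 and to 96 and 201 without MCD+HF+Met replicate 2, and the methods' t-test after adjustment gave 3 and 5. With 4 mice a group and signals near 20, small changes of Igf2 and Gpc3 were not detectable.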

Other observations

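Genes of stress and injury in hepatocytes were counted as another list. Of 19 tested, 12 were higher and 1 lower between MCD+HF and NC, beside 27.4% and 20.8% over all genes tested. The median log2 change was 2.01, against 0.051 over all genes. Gadd45b, a stress sensor, was higher by 3.46 (adjusted p = 2e-09 from limma), Cdkn1a, the cell cycle inhibitor p21, by 3.20 (adjusted p = 4.3e-07), Anxa2, an annexin, by 3.07 (adjusted p = 1.1e-09) and Lcn2, lipocalin 2, by 3.06 (adjusted p = 0.0011). Between MCD+HF+Met and MCD+HF, 2 were higher and 4 lower, beside 1.63% and 2.35% over all genes tested. Nupr1 was among those higher (log2 change 2.10, adjusted p = 0.00117 from limma). Atf3, a transcription factor of the stress response (-0.94, adjusted p = 0.0124), Anxa3 (-0.85, adjusted p = 0.0155) and Gadd45b (-0.77, adjusted p = 0.0385) were among those lower.

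Of 10 tested genes of the STAT3 and AP-1 pathways, 4 were higher and 2 lower between MCD+HF and NC, beside 27.4% higher and 20.8% lower over all genes tested. Fosl2 changed by 2.76 (adjusted p = 1.9e-07 from limma) and Jun by 1.38 (adjusted p = 0.00105), both subunits of AP-1. Of other subunits, Jund changed by 0.56 (adjusted p = 0.00935 from limma) and Junb by -0.36 (adjusted p = 0.0294). Fos was not called, at -0.275 (adjusted p = 0.623 from limma). Osmr, the oncostatin M receptor, changed by 1.08 (adjusted p = 6e-05) and Il6ra, the interleukin 6 receptor, by -0.76 (adjusted p = 0.00715). Between MCD+HF+Met and MCD+HF none was called, with Fosl2 at -0.75 (adjusted p = 0.0926 from limma) and Jun at -0.76 (adjusted p = 0.157).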
